A study of Mus musculus with 9 samples.

Results

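The genes described here are 37 genes of amino acid supply and one-carbon metabolism around the transcription factor ATF4, found as rows of the deposited expression table by their symbols, out of 21958 genes in all. Each of the 37 had a row and each passed the filter on low counts, which left 13013 genes for testing. The list was chosen by gene name with earlier results of these libraries in view. In those results Chac1, Aldh1l2 and Gldc were among the genes that differed most between mutant and control, and Atf4 was lower after induction. The values of those 4 genes in those comparisons are therefore given as a description, with no test. For the other members the test is the one fitted over all genes, and the members' counts describe them and are not independent evidence.

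The libraries came from cultured periosteal progenitors of the mouse mandible, cells of the membrane around the jaw bone, and fell into 3 groups of 3. The day 0 controls carried floxed Plagl1 (Plagl1 fl/fl) and received no osteogenic agents. The day 3 controls had the same genotype and had spent 3 days with 100 nM dexamethasone, 50 ug/ml ascorbic acid and 5 mM b-glycerophosphate. The day 3 mutants (CTSK-iCre;Plagl1 fl/fl) had the same treatment and added a Cre recombinase under control of the cathepsin K gene Ctsk, a gene that osteoclasts express as well as periosteal cells. The labels do not say how old the mice were, how many there were or whether the 3 libraries of a group were separate cultures. The p-values therefore rest on the spread between libraries alone, which may be technical. The day 0 and day 3 groups differ in time in culture as well as in medium, and these cannot be told apart.

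ATF4 is a basic leucine zipper factor of the integrated stress response. When amino acids run short, when unfolded proteins load the endoplasmic reticulum or when other stresses act, kinases phosphorylate the initiation factor eIF2, most translation slows, and the Atf4 messenger is translated better. ATF4 then activates genes that make or import amino acids, charge transfer RNA and run the mitochondrial folate pathway, which turns serine into glycine and one-carbon units. In osteoblasts ATF4 is known for supporting differentiation and the amino acid supply for collagen, which is rich in glycine and proline. Since ATF4 is controlled mainly by translation, its RNA level is not a measure of its protein.

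Total counts ran from 16204327 to 19859744 reads per library. Plagl1 itself had 35.5, 38.4 and 35.9 CPM in day 0 controls, 43.9, 44.9 and 45.8 CPM in day 3 controls and 26.3, 24.2 and 24.8 CPM in mutants, where CPM, the usual sequencing unit, are read counts scaled to a common library total with TMM factors. It was thus lower in every mutant library than in any control library, and reads remained in all of them. Markers of the labelled cells were present: 8 progenitor and fibroblast genes, none at 0, summed to 9225 to 10220.0 CPM at day 0, 15314 to 15996 CPM in day 3 controls and 11532 to 12704 CPM in mutants. Most of each sum was Col1a1, with means of 7216, 7806 and 4613 CPM, and Postn, with 1615, 5253 and 4512 CPM. The 8 did not move together. Against day 3 controls, Col1a1, Prrx1, Ctsk and Postn were lower in mutants, and Thy1 and Ly6a were higher. Macrophage markers were also abundant, with none at 0. In sum, 10 of them had 13727 to 14188 CPM at day 0, 19668 to 21640.0 CPM in day 3 controls and 20691 to 22783 CPM in mutants. Most of each sum was Lyz2, with means of 8598.5, 12938 and 13038 CPM. From day 0 to day 3 controls 8 of the 10 were higher, while Csf1r and Mrc1 were lower (log2 fold changes −0.56 and −0.55). Osteoclast markers were sparse, at 104 to 123, 216 to 222 and 219 to 223 CPM for 7 genes, with Calcr, Dcstamp or Ocstamp at 0 in some libraries. These sums hide opposite moves. Acp5 had means of 5.92, 94.1 and 119 CPM, and Atp6v0d2 33.1, 3.42 and 3.03 CPM. Ctsk, also among the progenitor genes, had 71.7, 119 and 97.3 CPM. Against day 3 controls, Acp5 was higher in mutants and Ctsk lower (log2 fold changes 0.33 and −0.29). Atp6v0d2 and Mmp9 overlapped between those groups (−0.17 and −0.07). The 7 endothelial genes summed to 11.1 to 15.4, 6.03 to 7.08 and 9.07 to 10.4 CPM. In RNA from mixed cells, a lower level cannot be told apart from fewer cells of the type that expresses the gene.

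After 3 days of induction most of the ATF4, serine and one-carbon genes stood lower in control cells. Of the 37 genes 26 were called lower and 7 higher, with 4 not called (edgeR quasi-likelihood test, Benjamini-Hochberg adjusted p below 0.05 over all 13013 genes). Over all genes tested 32.4% were called lower and 33.1% higher, 65.5% in all. The median log2 fold change of the 37 was −0.88, against 0.01 over all genes. In the mutant at day 3, 21 were called lower and 3 higher against day 3 controls, with 13 not called. Over all genes 9.74% were called lower and 7.95% higher in that comparison, 17.7% in all. The median of the 37 was −0.30, against 0.00 over all genes. On induction the libraries of the 2 groups did not overlap for 32 of the 37 genes, and for 70.8% of all genes tested. In the mutant against day 3 controls they did not overlap for 26 of the 37, and for 33.4% of all genes tested. Both comparisons use the same day 3 controls, and 19 of the 37 were called lower in both. The share of all genes lower in both was not counted, so the 19 are a description only. Of the others lower in the mutant, Nupr1 was called higher on induction and Sesn2 was not called. The counts include Atf4 on induction and Chac1, Aldh1l2 and Gldc in the mutant, listed with those values known.

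**Figure D1:**
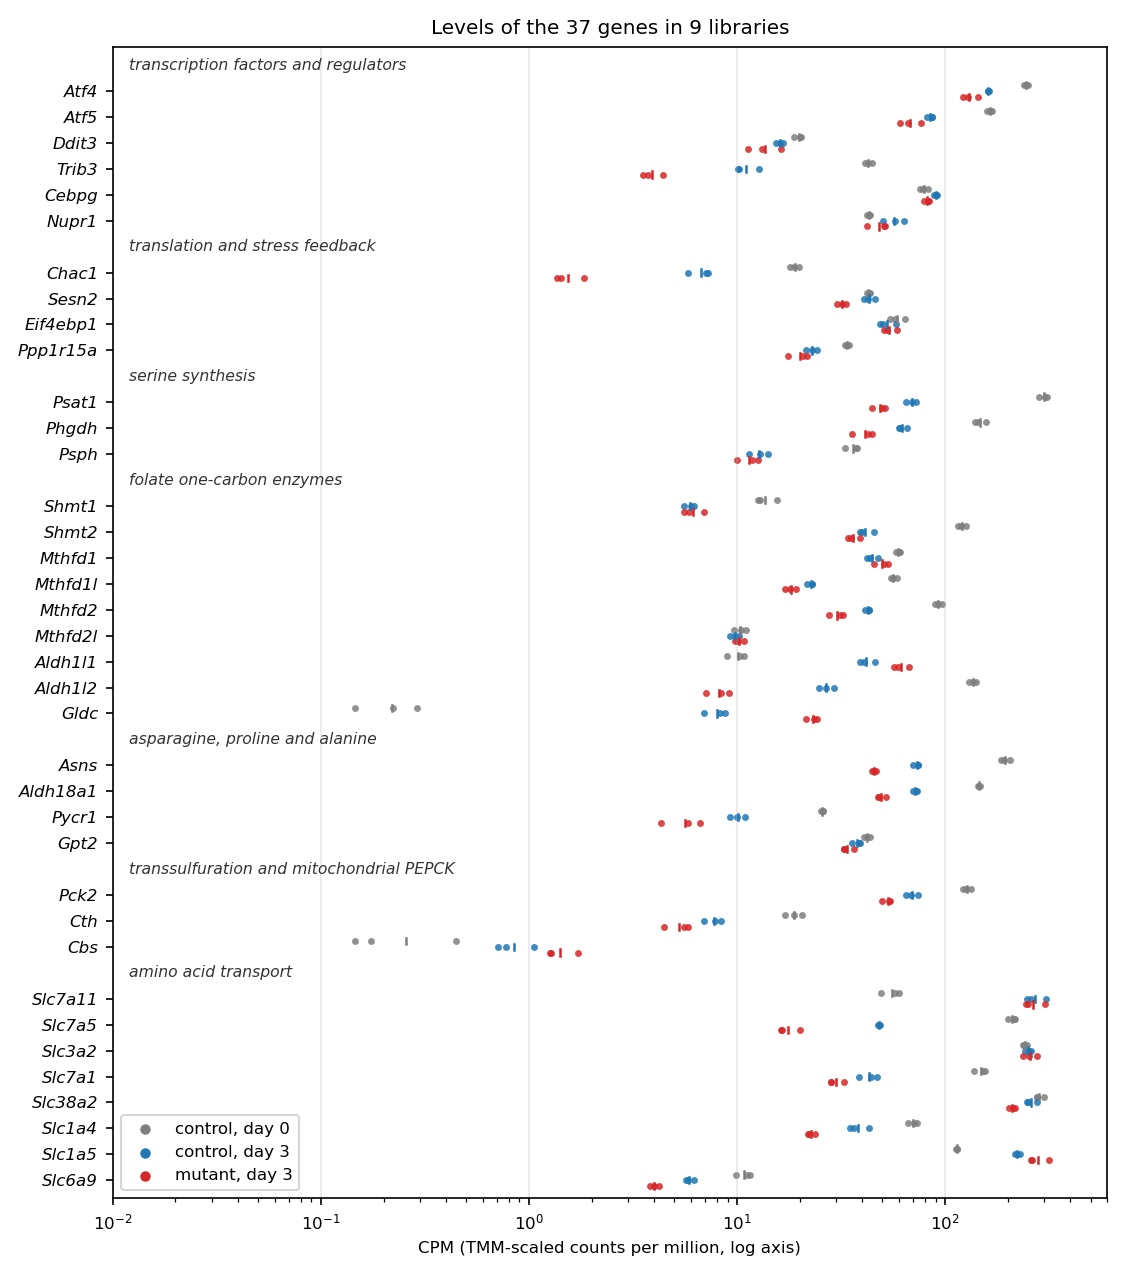
Level of each of the 37 genes in each library, in TMM-scaled CPM on a log axis, grouped by role; points are the 3 libraries of a group and bars their mean. Most genes step down from day 0 controls to day 3 controls and to mutants, such as Trib3, Aldh1l2 and Slc7a5, while Gldc and Aldh1l1 step up in the same order.

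Set directly against day 0 controls, the mutant had 27 of the genes lower and 5 higher, where 34.7% of all genes were called lower and 33.7% higher, 68.3% in all. The median of the 37 was −1.27. This comparison joins genotype, medium and time in culture, and no mutant library was taken at day 0. A mutant difference already present before induction therefore cannot be told apart from a changed response to it. Smooth muscle and pericyte markers also differed between the groups, though not all one way: 8 of them summed to 2677 to 2751 CPM at day 0, 762 to 865 CPM in day 3 controls and 514 to 605 CPM in mutants. Most of that sum was Acta2, with means of 2422, 675 and 464 CPM. The pericyte marker Rgs5 rose 14.1-fold on induction (adjusted p = 1.1e-10) and was at 0.483 times control in the mutant (adjusted p = 0.00103), and the muscle filament gene Des was higher in both comparisons (2.12-fold and 1.63-fold, adjusted p = 4.38e-06 and 0.000941). The 4 Y-linked genes Ddx3y, Uty, Kdm5d and Eif2s3y summed to 261 to 283 CPM over the control libraries and to 91.6 to 108 CPM in mutants. The part of these marker shifts in the results was not tested, and the Y-linked difference cannot be told apart from the genotype.

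The promoter letters of these genes were not searched to choose them. The list was drawn around ATF4, however, so the share with its element is not independent of that choice. ATF4 binds with C/EBP partners to an element with the core TGATGNAA. That core, on either strand, was searched in RefSeq promoter windows of GRCm38.p6, from 250 bases before to 50 bases after each gene's start, where 32 of the 37 genes matched by symbol. It was present for 8 of the 32 (25%), namely Asns, Chac1, Nupr1, Pck2, Pycr1, Slc1a4, Slc7a11 and Trib3, against 4.51% of all 27025 genes with a window. The cAMP response element TGACGTCA, searched on both strands and not overlapping any of these matches, was present for 1 of the 32, Ppp1r15a (3.12%), against 2.03% of all genes. The stretches below are shown because these genes carry the core upstream of the start; they hold Chac1, the gene with the largest fall in the mutant, and Slc7a11, which rose on induction. They read 5′ to 3′ on the gene's strand, with the core or its reverse complement TTNCATCA in capitals.
Chac1, chr2:119351019-119351086, plus strand: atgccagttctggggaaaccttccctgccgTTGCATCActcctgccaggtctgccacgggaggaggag
Asns, chr6:7693210-7693262, minus strand: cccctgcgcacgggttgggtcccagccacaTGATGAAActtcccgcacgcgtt
Pycr1, chr11:120643814-120643881, minus strand: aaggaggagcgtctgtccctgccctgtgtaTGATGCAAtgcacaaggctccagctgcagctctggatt
Pck2, chr14:55540133-55540200, plus strand: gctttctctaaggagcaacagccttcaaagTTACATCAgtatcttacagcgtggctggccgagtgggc
Nupr1, chr7:126625543-126625610, minus strand: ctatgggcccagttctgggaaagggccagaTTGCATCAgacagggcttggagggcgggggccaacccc
Slc7a11, chr3:50443623-50443709, minus strand: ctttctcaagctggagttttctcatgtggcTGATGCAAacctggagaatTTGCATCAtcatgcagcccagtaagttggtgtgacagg

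Slc7a11 holds the core on both strands. In Slc1a4 and Trib3 the match lies across or after the start, and those stretches are not shown. Of the 8 genes with the core, 7 were lower in the mutant and none higher, with a median log2 fold change of −0.71, and Slc7a11 was the one not called. These 7 count Chac1, in the list with its mutant value known, and Nupr1, whose call did not hold under several alternatives. Of the 24 without it, 11 were lower and 2 higher, with a median of −0.22. The 5 genes without a window, and so in neither count, were Aldh1l2, Slc7a5, Cth, Slc1a5 and Eif4ebp1, with log2 fold changes in the mutant of −1.71, −1.44, −0.54, 0.32 and 0.04. Over all tested genes with a window, 13.4% of the 298 with the core and 9.13% of the 9999 without it were lower in the mutant. After induction the shares lower were 33.6% and 32.3%. Among the members, 6 of the 8 with the core and 17 of the 24 without it were lower on induction (75.0% and 70.8%, medians −1.11 and −0.58). For the mutant against day 0 controls both shares were 75.0% (medians −1.86 and −0.83). A match is a description of these letters and not a bound site.

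Among the transcription factors, Atf4 (ENSMUSG00000042406, chromosome 15, 80139385 to 80141742, GRCm39) had 244, 239 and 251 CPM at day 0, 160.2, 161 and 163 CPM in day 3 controls and 128, 143 and 121 CPM in mutants. The 3 groups did not overlap, and the level after induction was 0.659 times that at day 0 (log2 fold change −0.60). In the mutant it was at 0.812 times the day 3 control level (−0.30 ± 0.06 SE, edgeR adjusted p = 0.000821). That call was lost in the edgeR test against a fold of 1.2 (adjusted p = 0.77). Per gene length, Atf4 was the highest of the 37 genes at day 0, at 110.3 ± 3.22 FPKM, a deposited value scaled by gene length and by the total count.

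Atf5, a related factor that is translated in a like manner, had 168, 159 and 165 CPM at day 0, 87.0, 86.2 and 81.6 CPM in day 3 controls and 66.6, 76.9 and 60.9 CPM in mutants. It fell after induction to 0.518 times (adjusted p = 2.76e-11) and was at 0.802 times control in the mutant (adjusted p = 0.0023). The mutant call of Atf5 was also lost against a fold of 1.2 (adjusted p = 0.662). Trib3, a pseudokinase that binds ATF4 and restrains it, and is itself a target of ATF4, had the largest drop of this class. Here and below, where 3 sets of values follow each other they are those of day 0 controls, day 3 controls and mutants. Trib3 had 42.4, 41.0 and 44.5 CPM, then 12.8, 10.1 and 10.2 CPM, then 3.74, 4.39 and 3.54 CPM in mutants. The log2 fold change was −1.95 ± 0.10 SE after induction (adjusted p = 4.95e-14) and −1.50 ± 0.13 SE in the mutant (adjusted p = 1.76e-08). No library of one group reached into another for Atf5 or Trib3.

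Other factors of the class moved little or the other way. Ddit3, which encodes the stress factor CHOP and whose symbol also stands on a second, little-read identifier not used here, was at 0.813 times after induction (adjusted p = 0.0167), a call lost without replicate 3 of either control group (adjusted p = 0.0525 and 0.0558). In the mutant it had 13.2, 16.3 and 11.3 CPM against 16.6, 16.1 and 15.5 CPM in controls and was not called (adjusted p = 0.143), but was called without mutant replicate 2 (adjusted p = 0.0131). Cebpg, a C/EBP partner of ATF4, rose after induction by a log2 change of 0.19 (adjusted p = 0.00443), and in the mutant was at −0.14 (adjusted p = 0.0943). Nupr1, a small stress-induced chromatin protein, rose 1.32-fold after induction (adjusted p = 0.000172). Its lower level in the mutant (−0.25, adjusted p = 0.0408) overlapped with controls. That call was lost in DESeq2 (adjusted p = 0.0523), with only those 2 groups fitted (0.0666) and without mutant replicate 1 or 3 or day 3 control replicate 1 or 3 (adjusted p = 0.0538 to 0.235).

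Of the 4 genes of translation and stress feedback, 2 were lower on induction and 2 in the mutant. In each comparison 50.0% were called, against 65.5% and 17.7% over all genes. The mutant count includes Chac1, listed with that value known. Chac1, which encodes an enzyme that breaks down glutathione and is a late target in this response, had 19.9, 17.9 and 18.9 CPM at day 0 and 7.24, 7.06 and 5.84 CPM in day 3 controls. In the mutant it had 1.36, 1.85 and 1.43 CPM, on 23, 32 and 25 reads. All mutant libraries lay under all controls, and the level was 0.230 times that of day 3 controls, after a fall on induction to 0.356 times (adjusted p = 1.46e-10). Sesn2, a leucine sensor that restrains mTORC1, was not called on induction (0.01 ± 0.07 SE, adjusted p = 0.882). In the mutant it was lower, at 0.737 times control, with 31.8, 33.5 and 30.1 CPM against 40.9, 45.9 and 42.7 CPM (adjusted p = 8.23e-05). Ppp1r15a, the phosphatase subunit that reverses eIF2 phosphorylation, fell to 0.677 times on induction (adjusted p = 2.71e-06) and was at −0.20 in the mutant (adjusted p = 0.122). Eif4ebp1, a repressor of cap-dependent translation, passed in neither comparison (−0.16, adjusted p = 0.0712, and 0.04, adjusted p = 0.751). Its change on induction was called without day 0 replicate 2 or day 3 control replicate 1 (adjusted p = 0.0376 and 0.0146), with no filter on low counts (0.0495) and with only those 2 groups fitted (0.0431).

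The 3 genes of serine synthesis from glycolysis all fell on induction, and 2 were lower in the mutant. The shares called were 100.0% and 66.7%, against 65.5% and 17.7% over all genes. Psat1, the aminotransferase of the middle step, fell most, from 309.8, 282 and 301 CPM to 69.2, 65.2 and 72.6 CPM (log2 fold change −2.11 ± 0.06 SE, adjusted p = 6.09e-18). Phgdh, the dehydrogenase of the entry step, went from 157, 139 and 144 CPM to 65.5, 59.8 and 60.5 CPM, and Psph, the phosphatase of the last step, from 37.9, 33.1 and 37.2 CPM to 12.9, 11.4 and 14.1 CPM. Day 0 and day 3 libraries of these genes lay far apart. In the mutant Psat1 had 49.9, 51.2 and 44.4 CPM, at 0.704 times control (adjusted p = 6.85e-06). Phgdh had 42.8, 44.8 and 35.7 CPM, at 0.663 times control (adjusted p = 6.15e-06). Psph had 12.6, 11.8 and 10.0 CPM, which overlapped with controls, and was not called (−0.16 ± 0.11 SE, adjusted p = 0.36).

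Of the 9 folate and glycine enzyme genes 6 were lower and 2 higher on induction, and 3 were lower and 2 higher in the mutant. The shares called were 88.9% and 55.6%, against 65.5% and 17.7% over all genes. The mutant counts include Aldh1l2 and Gldc, listed with those values known. In mitochondria, SHMT2 splits serine into glycine and a one-carbon unit, MTHFD2 or MTHFD2L oxidizes the folate that carries it, MTHFD1L releases it as formate, and ALDH1L2 burns it to carbon dioxide. In the cytosol SHMT1, MTHFD1 and ALDH1L1 do the matching steps.

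Aldh1l2 (ENSMUSG00000020256, chromosome 10, 83323314 to 83370004, GRCm39) had 137, 140.0 and 131 CPM at day 0, 24.8, 26.6 and 29.2 CPM in day 3 controls and 9.13, 8.37 and 7.09 CPM in mutants. It fell to 0.198 times on induction (adjusted p = 1.28e-17), and the mutant level was 0.305 times that of day 3 controls. Its cytosolic paralog Aldh1l1 did the reverse, with 8.95, 10.9 and 10.4 CPM, then 38.8, 40.9 and 45.8 CPM, then 59.6, 67.1 and 57.0 CPM. Aldh1l1 rose 4.17-fold on induction (adjusted p = 1.64e-14) and was 1.46-fold higher in the mutant than in day 3 controls (adjusted p = 2.43e-05). The 3 groups did not overlap for either gene. The ratio of Aldh1l2 to Aldh1l1 FPKM within a library was 9.21, 7.76 and 7.59 at day 0, 0.385, 0.392 and 0.383 in day 3 controls and 0.0922, 0.0751 and 0.0749 in mutants. The mitochondrial gene was thus the more abundant one per length before induction and the less abundant one after it.

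Mthfd2 had 96.3, 89.7 and 92.5 CPM at day 0, 43.1, 43.2 and 41.4 CPM in day 3 controls and 31.1, 32.3 and 27.7 CPM in mutants. It fell on induction to 0.459 times (adjusted p = 6.78e-13) and stood at 0.713 times control in the mutant (adjusted p = 2.15e-05). Its close relative Mthfd2l had 10.5, 9.69 and 11.01 CPM, 9.75, 9.27 and 10.2 CPM and 9.78, 10.9 and 10.1 CPM, with groups that overlap and no call in either comparison (log2 −0.09 ± 0.11 SE, adjusted p = 0.454, and 0.08 ± 0.11 SE, adjusted p = 0.678). Mthfd1l, the formate-releasing enzyme, had 58.6, 54.9 and 55.9 CPM, 22.9, 23.0 and 21.7 CPM and 17.1, 19.2 and 18.1 CPM. It fell to 0.399 times on induction (adjusted p = 1.88e-13) and was at 0.803 times control in the mutant (adjusted p = 0.00624).

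The cytosolic Mthfd1 had 60.7, 57.9 and 60.0 CPM, 42.2, 43.5 and 47.8 CPM and 53.0, 50.6 and 45.5 CPM. It fell to 0.747 times on induction (adjusted p = 1.35e-05) and in the mutant stood at a log2 change of 0.16 ± 0.07 SE, which was not called (adjusted p = 0.12) except without mutant replicate 3 (adjusted p = 0.026). Within a library the ratio of Mthfd2 to Mthfd1 FPKM was 2.02, 1.98 and 1.96 at day 0, 1.30, 1.27 and 1.10 in day 3 controls and 0.749, 0.813 and 0.776 in mutants. Shmt2 had 126, 119 and 115 CPM, 45.4, 39.7 and 39.0 CPM and 35.1, 38.8 and 34.1 CPM, and Shmt1 12.8, 12.6 and 15.6 CPM, 5.55, 5.98 and 6.21 CPM and 6.94, 5.54 and 5.89 CPM. Both fell on induction, Shmt2 to 0.344 times (adjusted p = 9.39e-15) and Shmt1 to 0.433 times (adjusted p = 2.36e-08). In the mutant neither was called, Shmt2 at −0.20 ± 0.07 SE (adjusted p = 0.0623) and Shmt1 at 0.05 ± 0.14 SE (adjusted p = 0.846). Shmt2 was called lower without mutant replicate 2 (adjusted p = 0.0188) or with no filter on low counts (0.0408). The Shmt2 to Shmt1 ratio ran from 9.22 to 12.3 at day 0, from 7.84 to 10.2 in day 3 controls and from 6.32 to 8.74 in mutants, with overlap between neighbouring groups.

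**Figure D2:**
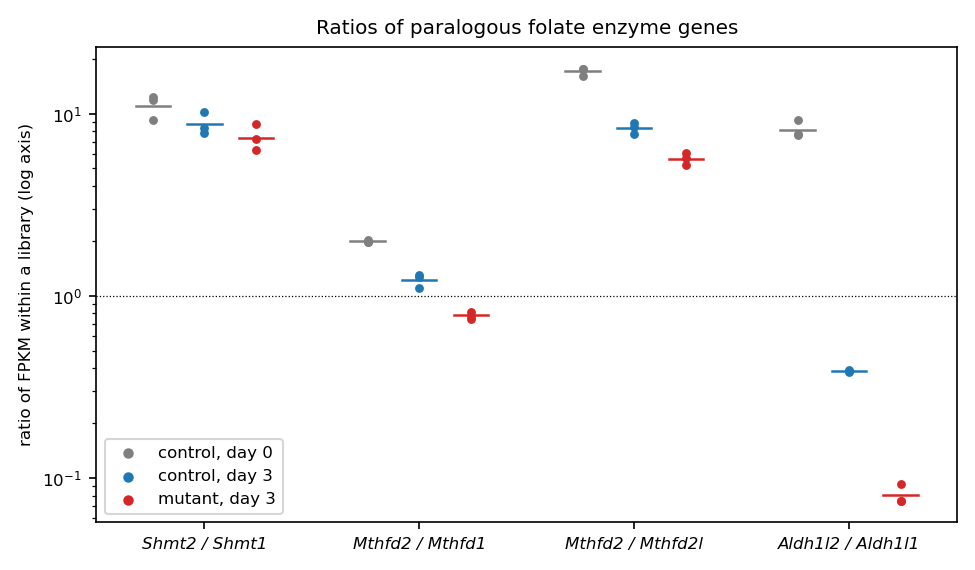
Ratio of deposited FPKM of paralogous folate enzyme genes within each library, on a log axis; points are libraries and bars the geometric mean of 3. The ratio of Aldh1l2 to Aldh1l1 runs from 7.59 to 9.21 at day 0 down to 0.0749 to 0.0922 in mutants, and that of Mthfd2 to Mthfd1 crosses 1 between day 3 controls and mutants, while the Shmt2 to Shmt1 ratios of neighbouring groups overlap.

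Gldc, the decarboxylase that breaks down glycine in mitochondria, rose most of all the members. It had 3, 4 and 5 reads at day 0 and 161, 160 and 112 reads in day 3 controls, or 0.219 ± 0.0719 and 7.99 ± 0.931 CPM (SD, n = 3). The log2 fold change on induction was 5.17 ± 0.24 SE (adjusted p = 2.41e-14). In mutants it had 24.2, 23.4 and 21.6 CPM, each above every control, at 2.87 times the day 3 control level. The other proteins of the glycine cleavage system were not called in the mutant by edgeR or DESeq2, and 0 of the 3 had an unadjusted p below 0.05: Amt was at −0.23, Dld at 0.05 and Gcsh at 0.02 on the log2 scale (edgeR adjusted p = 0.499, 0.632 and 0.874). On induction Amt rose 2.73-fold and Gcsh fell to 0.790 times (adjusted p = 1.72e-05 and 0.000298).

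Asns and the genes of proline synthesis fell in both comparisons. With Gpt2 they make 4 genes, of which 100.0% and 75.0% were called, against 65.5% and 17.7% over all genes. Asns, asparagine synthetase, had 192, 186 and 205 CPM at day 0, 70.0, 74.4 and 74.4 CPM in day 3 controls and 46.8, 45.6 and 44.3 CPM in mutants, without overlap between groups. The level fell to 0.376 times on induction (adjusted p = 1.35e-15) and was 0.625 times control in the mutant (adjusted p = 2.32e-08). Aldh18a1, which starts proline synthesis from glutamate, had 145, 147 and 146 CPM, 73.0, 72.6 and 70.4 CPM and 48.4, 52.2 and 47.8 CPM (−1.02, adjusted p = 2.24e-13, and −0.54, adjusted p = 3.7e-07). Pycr1, the mitochondrial reductase that ends it, had 25.8, 25.3 and 25.9 CPM, 10.9, 10.0 and 9.26 CPM and 4.33, 6.64 and 5.83 CPM (−1.35, adjusted p = 2.95e-10, and −0.85, adjusted p = 7.42e-05). Gpt2, the mitochondrial alanine aminotransferase, moved little, at −0.16 on induction (adjusted p = 0.0465) and −0.16 in the mutant (adjusted p = 0.132). The first of these calls was lost in DESeq2 (adjusted p = 0.0646), under other filters (0.0516 and 0.0694), and without any 1 of day 0 replicates 1 and 2 and day 3 control replicates 1, 2 and 3 (0.0589 to 0.209).

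Pck2, the mitochondrial enzyme that makes phosphoenolpyruvate, had 133, 121 and 127 CPM, 74.3, 68.9 and 65.0 CPM and 54.0, 54.6 and 50.0 CPM, falling to 0.547 times on induction (adjusted p = 3.29e-11) and standing at 0.761 times control in the mutant (adjusted p = 0.000131). Of the pair that makes cysteine from homocysteine, Cth had 18.8, 16.9 and 20.5 CPM, 7.84, 6.96 and 8.39 CPM and 4.45, 5.54 and 5.83 CPM. It fell to 0.411 times on induction (adjusted p = 2.48e-09) and was at 0.686 times control in the mutant (adjusted p = 0.00823), a call lost without mutant replicate 1 (adjusted p = 0.0587). Cbs, the enzyme before it, was barely read, with 3, 8 and 3 reads at day 0, 13, 15 and 17 reads in day 3 controls and 29, 22 and 22 reads in mutants. It rose on induction (1.71 ± 0.46 SE, adjusted p = 0.00274) and was not called in the mutant (0.75 ± 0.33 SE, adjusted p = 0.127).

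Among the 8 amino acid transporter genes 5 were lower and 2 higher on induction, and 5 were lower and 1 higher in the mutant. The shares called were 87.5% and 75.0%, against 65.5% and 17.7% over all genes. CD98, encoded by Slc3a2, is the shared heavy chain of LAT1 (Slc7a5), which imports leucine and other large neutral amino acids, and of xCT (Slc7a11), which imports cystine. Slc3a2 had 237, 241 and 247 CPM, 258, 253 and 243 CPM and 253, 277 and 237 CPM, with overlapping groups and no call (adjusted p = 0.361 and 0.825). Slc7a5 had 216, 213 and 200.3 CPM at day 0, 48.1, 47.6 and 48.5 CPM in day 3 controls and 16.3, 20.2 and 16.5 CPM in mutants. It fell to 0.229 times on induction (log2 −2.13 ± 0.06 SE, adjusted p = 9.92e-18) and was at 0.368 times control in the mutant (log2 −1.44 ± 0.08 SE, adjusted p = 9.35e-12). Slc7a11 went from 60.0, 57.2 and 49.0 CPM to 246, 306 and 258 CPM and had 244, 251 and 301 CPM in mutants. It rose 4.87-fold on induction (adjusted p = 1.15e-15), and in the mutant its values overlapped with those of controls (−0.03 ± 0.08 SE, adjusted p = 0.866). Per gene length, Slc7a5 stood at 60.1 ± 2.31 and Slc7a11 at 4.23 ± 0.433 FPKM at day 0, and at 12.7 ± 0.123 and 18.9 ± 2.25 FPKM in day 3 controls (SD, n = 3), so their order turned.

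Slc7a1, which carries arginine and lysine, had 155, 152 and 138 CPM, 38.7, 44.2 and 47.1 CPM and 28.3, 28.4 and 32.8 CPM, falling to 0.292 times on induction (adjusted p = 2.68e-15) and standing at 0.689 times control in the mutant (adjusted p = 4.63e-05). The neutral amino acid exchangers ASCT1 (Slc1a4) and ASCT2 (Slc1a5) moved in opposite directions. Slc1a4 had 73.3, 70.9 and 66.0 CPM, 42.9, 34.9 and 36.4 CPM and 21.8, 23.8 and 22.2 CPM, at 0.543 times after induction (adjusted p = 6.87e-10) and 0.594 times control in the mutant (adjusted p = 5.95e-07). Slc1a5, the main glutamine exchanger, had 114, 114 and 113 CPM, 229, 217 and 221 CPM and 261, 315 and 258 CPM, 1.96-fold higher after induction (adjusted p = 1.32e-11) and 1.25-fold higher in the mutant (adjusted p = 0.000862). For both, the groups lay apart.

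Slc38a2, a sodium-coupled carrier of small neutral amino acids, was lower in the mutant, with 216, 203 and 211 CPM against 249, 275 and 251 CPM (0.814 times, adjusted p = 0.000481). Its small drop on induction (−0.13, adjusted p = 0.0371) overlapped between groups and was lost without day 0 replicate 1 or day 3 control replicate 1 or 3 (adjusted p = 0.139 to 0.181). Slc6a9, the glycine transporter, had 11.1, 11.6 and 9.85 CPM, 5.83, 6.18 and 5.72 CPM and 4.21, 3.98 and 3.83 CPM (−0.88, adjusted p = 1.58e-06, and −0.56, adjusted p = 0.00765).

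**Figure D3:**
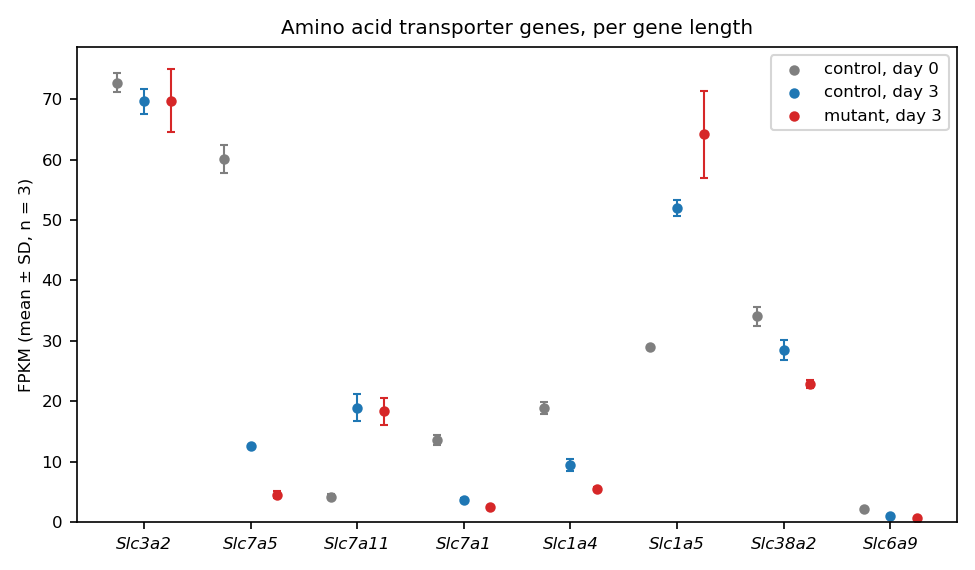
Deposited FPKM of the 8 amino acid transporter genes, mean and SD of 3 libraries per group, on a linear axis from 0. The Slc3a2 means lie between 69.6 and 72.7 FPKM, Slc7a5 goes from 60.1 to 12.7 and 4.58 FPKM, and Slc7a11 and Slc1a5 rise after induction.

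The wider pathway was read from lists of other genes. Of 16 genes for eIF2, its exchange factor, its kinases and their regulators (Gcn1, Impact, Dele1 and the phosphatase subunit gene Ppp1r15b), 10 were lower and 2 higher on induction, 75.0% in all. Over all genes 32.4% were lower and 33.1% higher, 65.5% in all. In the mutant 1 was lower and none higher, 6.25% against 17.7% over all genes (median 0.04; 3 higher at an unadjusted p below 0.05, and none called higher by DESeq2). Eif2s2, the beta subunit, was that gene (−0.16, adjusted p = 0.034). None of the 4 kinase genes was called in the mutant: PERK (Eif2ak3) was at −0.02, GCN2 (Eif2ak4) at −0.13, HRI (Eif2ak1) at 0.07 and PKR (Eif2ak2) at −0.07 (adjusted p = 0.894, 0.275, 0.51 and 0.57). On induction PKR, which interferon also induces, rose 1.79-fold (adjusted p = 4.35e-09). The gamma subunit has copies on both sex chromosomes. The Y copy Eif2s3y went from 88.3 ± 6.19 to 33.1 ± 0.976 CPM in the mutant (SD, n = 3, adjusted p = 1.08e-12), with the other Y-linked genes, while the X copy Eif2s3x was at 0.23 (adjusted p = 0.0615).

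Of 19 tested cytosolic aminoacyl-tRNA synthetase genes, which load amino acids on transfer RNA, 17 were lower and 1 higher on induction (median −0.68), and 7 were lower and 2 higher in the mutant (median −0.10). The shares called were 94.7% and 47.4%, against 65.5% and 17.7% over all genes. The 3 synthetase genes with the smallest p in the mutant were those for cysteine (Cars, −0.42, adjusted p = 8.21e-05), glycine (Gars, −0.29, adjusted p = 0.00108) and isoleucine (Iars, −0.26, adjusted p = 0.002). On induction these were Aars (−0.94), Gars (−0.93) and Tars (−0.83), with adjusted p of at most 4.97e-12. Hars and Farsb were the genes higher in the mutant (0.20 and 0.18, adjusted p = 0.0263 and 0.0266). Of 19 other reported ATF4 targets, 12 were lower and 3 higher on induction (median −0.91), and 5 were lower and none higher in the mutant (median −0.17; DESeq2 called 4 lower and none higher, and 3 were higher at an unadjusted p below 0.05). The shares called were 78.9% and 26.3%, against 65.5% and 17.7% over all genes. Over all genes 32.4% were called lower on induction and 9.74% in the mutant. The targets lower in the mutant included the growth factor gene Vegfa (0.671 times, adjusted p = 2.35e-06), the branched-chain aminotransferase gene Bcat1 (0.705 times, adjusted p = 0.000159) and the death receptor gene Tnfrsf10b (0.711 times, adjusted p = 0.000428). On induction the partner factor Atf3 fell to 0.131 times (adjusted p = 3.35e-18) and Vegfa to 0.329 times (adjusted p = 8.09e-16), while Ddit4, an mTORC1 inhibitor that glucocorticoids also induce, rose 3.94-fold (adjusted p = 1.41e-15).

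Of 18 genes of the XBP1 and ATF6 branches of the unfolded protein response, 10 were higher in the mutant, none was lower and 8 were not called, where 7.95% of all genes were called higher (median 0.17; DESeq2 called 11 higher, and 0 were lower at an unadjusted p below 0.05 in either tool). Of the 10 macrophage markers 6 were higher in the mutant as well (median 0.17), and the part of cell makeup in this was not tested. Sdf2l1, an endoplasmic reticulum co-chaperone gene, went from 62.8 ± 2.50 to 91.7 ± 6.29 CPM (SD, n = 3, 1.46-fold, adjusted p = 1.54e-06). Manf was 1.25-fold and the chaperone gene Hyou1 1.19-fold higher (adjusted p = 0.000691 and 0.00126). Hspa5, the chaperone BiP, was 1.17-fold higher (adjusted p = 0.00329) and was named after its value was seen. On induction 7 of the 18 were higher and 6 lower (median 0.04), led by Hspa5 (0.717 times) and by Pdia4 (1.31-fold) and Dnajb9 (1.42-fold), with adjusted p of at most 4.31e-07. The share called on induction, 72.2%, was near the 65.5% over all genes.

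Lists of folate-using and neighbouring enzymes outside the 37 had 75.0% to 80.0% of their tested genes called on induction, near the 65.5% over all genes. By direction, 32.4% of all genes were lower and 33.1% higher. In the mutant, where 17.7% of all genes were called, the shares were 0 of 16 for folate, purine and thymidylate genes, 11.1% for the methionine cycle, 30% for glutathione and 37.5% for glutamine and proline. Of 16 folate, purine and thymidylate genes 10 were lower and 2 higher on induction (median −0.28), among them the thymidylate synthase gene Tyms (0.433 times, adjusted p = 1.15e-11) and the purine gene Atic (0.575 times, adjusted p = 1.56e-11). In the mutant neither edgeR nor DESeq2 called any of the 16 (median 0.04), and 1 was at an unadjusted p below 0.05 in both. Of 9 methionine cycle genes 2 were higher and 5 lower on induction (median −0.26). In the mutant only Ahcy, which clears S-adenosylhomocysteine, was called (1.23-fold higher, adjusted p = 0.00201). Of 10 genes of glutathione synthesis and NRF2 targets 3 were higher and 5 lower on induction (median −0.30), with Hmox1, heme oxygenase, 3.39-fold higher (adjusted p = 4.14e-18). In the mutant 3 were higher and none lower in both tools (median 0.11), with 0 lower at an unadjusted p below 0.05. Of 8 glutamine and proline genes 3 rose and 3 fell on induction, and 3 were higher and none lower in the mutant in both tools (median 0.21), with 1 lower at an unadjusted p below 0.05. Among them glutamine synthetase, Glul, rose 4.29-fold on induction and was 1.22-fold higher in the mutant (adjusted p = 1e-18 and 0.000537).

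**Figure D4:**
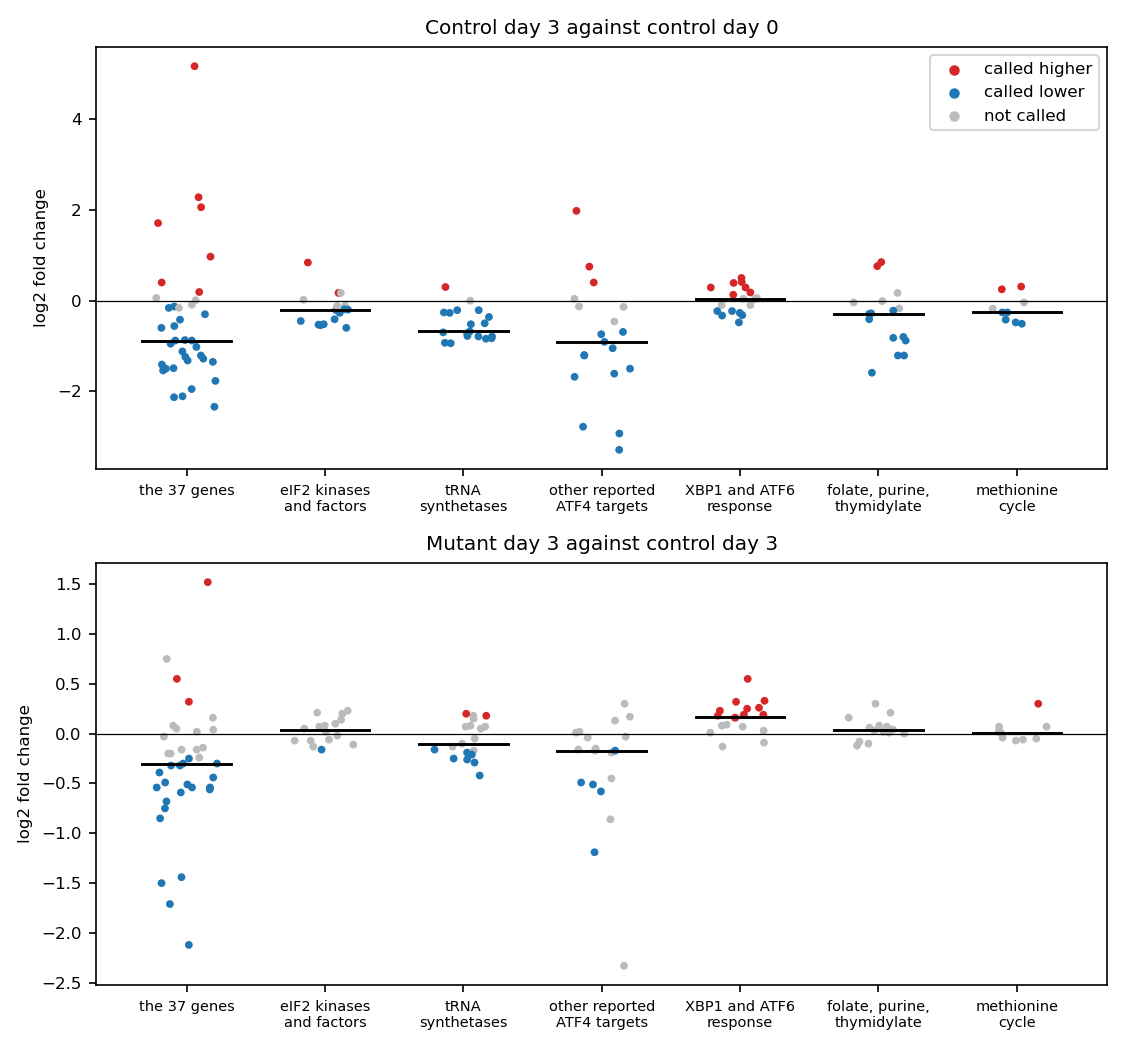
Log2 fold changes of the 37 genes and of 6 lists of neighbouring genes, for induction of control cells (top) and for mutant against control at day 3 (bottom); each point is a tested gene, coloured by its edgeR call, and the bar is the median. In the lower panel the 37 genes have a median of −0.30 and the XBP1 and ATF6 genes one of 0.17, with the other lists between them.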

How the data were processed

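Bulk RNA-seq of 9 libraries was analysed, 3 in each of 3 groups taken from the sample labels. The authors deposited 1 table with read counts per gene and FPKM; per the submitters' processing notes the tools were cutadapt, HISAT2 and HTSeq on GRCm39. For tool versions and strand setting: not given in the sources used here. Counts as deposited summed to 16204327 to 19859744 per library, and 1 empty line was left out. The FPKM were checked to be the authors' counts per gene length and total count. Reads of near-identical or overlapping genes cannot be told apart.

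Genes were filtered with edgeR 4.0.16 (filterByExpr, minimum count 10), scaled by TMM and fitted over all 9 libraries with the quasi-likelihood test in R 4.3.3, with Benjamini-Hochberg adjustment over 13013 genes and calls at adjusted p below 0.05. SE are those of the log2 fold change. The script was tested on simulated counts. Levels between genes were compared on FPKM. Intervals cover counting and library spread only; 3 counts correspond to 0.151 to 0.185 CPM. The members and lists were chosen with earlier results of these data known. Members called with an absolute log2 change of at least 0.8 and a mean of at least 2 CPM, Atf4 and the folate paralogs are given by library, and from each list up to 3 genes with the smallest p per comparison; some single-gene values are not reported here. Some tRNA synthetase genes were matched through RefSeq synonyms. Alternatives were DESeq2 1.42.0, other scalings and filters, fits of the 2 groups alone, a replicate block, a test against a fold of 1.2, and leaving out each library. Replicate numbers did not pair the libraries.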

Additional observations from a re-analysis of the deposited data

How the results depend on the processing

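No called member reversed direction in any alternative run: of 1554 member values 1505 kept their side of the threshold, 38 lost the call and 11 gained one. Against a fold of at least 1.2, the members called in the mutant against day 3 controls numbered 15 in place of 24, with 13 lower in place of 21. The calls lost were those of Atf4, Atf5, Mthfd1l, Slc38a2, Slc1a5, Slc6a9, Pck2, Cth and Nupr1. Leaving out 1 library in turn gave 30 to 33 members called on induction (7 to 7 higher, 23 to 26 lower), 22 to 26 in the mutant against day 3 controls (3 to 4 higher, 19 to 23 lower) and 32 to 34 in the mutant against day 0 (5 to 7 higher, 27 to 28 lower). Over all genes, the mutant against day 3 control calls fell from 2301 to 1479 without control day 3 replicate 2, and to 646 against a fold of 1.2, where the calls on induction fell from 8522 to 5657. The cause was not tested. Libraries with the same replicate number did not deviate together (correlations −0.077 to 0.028), so the numbers do not pair them. With the replicate block the members numbered 7 higher and 24 lower on induction, 3 and 20 in the mutant against day 3 controls, and 5 and 27 against day 0. The calls lost with it were those of Slc38a2 and Gpt2 on induction (adjusted p = 0.0545 and 0.0644) and of Nupr1 in the mutant (0.0663). Depth limits Gldc at day 0 and Cbs, which rest on few reads.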
